A study of Mus musculus with 6 samples.

Results

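Signaling through insulin, the insulin-like growth factors (IGFs) and the FOXO transcription factors was described with 10 genes, chosen by name: the receptor genes Insr and Igf1r, the adaptor genes Irs1 and Irs2, the IGF-binding protein genes Igfbp1, Igfbp2, Igfbp3 and Igfbp4, and the transcription factor genes Foxo1 and Foxo3. The deposited tables list 25330 genes, among them 9 of these 10, and 8 of the 9 had enough counts to be tested. Igfbp1 was too low for the test, and Igfbp2 was not analysed here. RNA was sequenced from AML12 cells, an untransformed mouse hepatocyte line derived from mice carrying a transgene for human transforming growth factor alpha, with genotype WT in the labels. The 3 Control libraries came from cells kept at 21% oxygen. The 3 hypoxia-reoxygenation (H/R) libraries, H6R2 in the labels, came from cells that spent 6 h at 1% oxygen in medium lacking serum and glucose and were then reoxygenated for 2 h. Before that, all cells had grown in DMEM/F12 with 10% fetal bovine serum, dexamethasone at 40 ng/mL and ITS, a supplement of insulin, transferrin and selenium. Whether the medium used for H/R also held insulin or dexamethasone is not stated in the sources used here, so that lower oxygen, reoxygenation and the loss of serum, glucose and possibly insulin cannot be told apart. The methods say in general that experiments were repeated, but nothing states that the libraries of a group came from separate cultures, so p-values measure the spread between these libraries, which may be technical.

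Insulin and the IGFs bind receptor tyrosine kinases on the cell surface. The receptors phosphorylate the IRS adaptors, which recruit phosphatidylinositol 3-kinase (PI3K) and thereby activate the kinase AKT. AKT phosphorylates the FOXO factors and keeps them out of the nucleus. In the fasted liver, when insulin is low, nuclear FOXO1 raises genes such as Igfbp1, Irs2 and those of glucose production, while insulin after feeding raises genes of fatty acid synthesis. The IGF-binding proteins, many of them made in the liver, carry IGFs and limit their access to the receptor. The measurements here are of RNA and do not show phosphorylation or the place of a protein in the cell.

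Library totals lay between 20438746 and 21854790 counts. Marker genes of liver cell types were examined. The summed level of 9 hepatocyte markers, in RPKM (reads scaled by exonic length and by library total), was 2500 to 2710 in Control and 3740 to 3770 after H/R, and 3 of the 9 rose, Krt8 and Krt18 among them, while 5 fell, Alb and Hnf4a among them. Krt8 and Krt18 made up most of this sum, at 2424 to 2616 RPKM in Control and 3679 to 3707 RPKM after H/R, and the other 7 markers together were at 78.5 to 95.3 RPKM in Control and 59.3 to 60.9 RPKM after H/R. The 3 biliary markers measured, Krt7, Krt19 and Sox9, all rose, and their sum went from 534 to 609 RPKM in Control to 1010 to 1060 RPKM after H/R. The Control means were 5.82 RPKM for Alb, 29.5 RPKM for Hnf4a and 495 RPKM for Krt19, so the sums do not settle the hepatocyte label. By the test described below, 31.0% of all tested genes rose and 31.8% fell. Summed endothelial, Kupffer and blood, and stellate markers reached at most 0.169 RPKM in any library, and 3 of 4, 4 of 4 and 2 of 3 of them had no more than 3 counts in every library. Control replicate 1 stood apart in a group of 10 adult liver genes, with a sum of 16.6 RPKM against 6.04 to 9.17 RPKM in the other controls and 2.88 to 4.74 RPKM after H/R. In that library Fga had 61 counts, against 0 in the other 5. The part of these marker differences in the results below was not tested, and values without Control replicate 1 are given where they change a call of the 8 tested genes. In RNA from whole cultures, fewer cells of a type and less RNA per cell cannot be told apart.

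Among the 8 testable genes, 4 were higher after H/R at an adjusted p under 0.05 (Foxo3, Foxo1, Igfbp4 and Igf1r) and 2 were lower (Irs1 and Insr), by the quasi-likelihood test of edgeR, adjusted over 14020 genes after Benjamini and Hochberg. The same test called 31.0% of all tested genes higher and 31.8% lower, so changes of this kind were common throughout the transcriptome. With the added requirement of a 2-fold change, Irs1 alone of the 8 remained, as a decrease, with 0 increases; among all tested genes 4.27% were lower and 4.25% were higher by both criteria. The groups of normalized counts did not overlap for 6 of the 8 genes, against 65.9% of all tested genes. Of these 6, Igf1r and Foxo1 overlapped in RPKM. The median log2 fold change was 0.16 for the 8 genes and -0.01 for all tested genes. Among the 8 genes the share higher by adjusted p and the share lower by both criteria were larger than among all tested genes. The share lower by adjusted p and the share higher by both criteria were smaller. These differences were not tested, and with only 8 genes a single gene moves each share by a large step. The results below therefore concern the single genes and not the group. Normalized counts are counts scaled to the mean effective library size, means are given with the SD of 3 libraries, and log2 fold changes are H/R over Control with their standard error (SE).

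**Figure D1:**
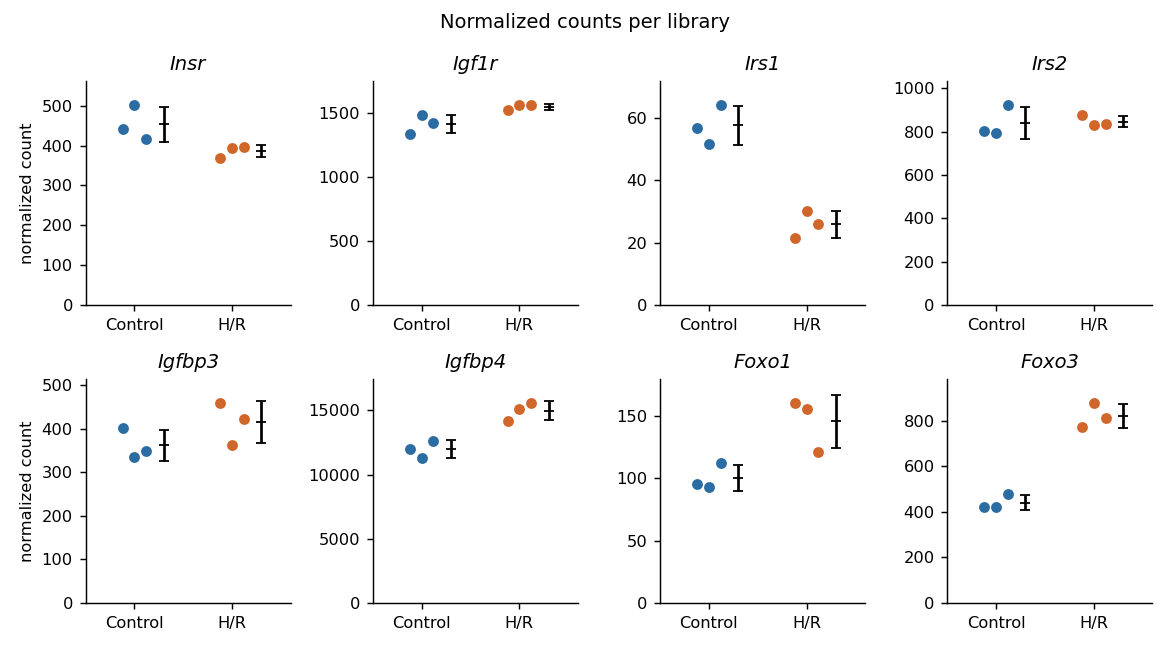
Normalized counts of the 8 tested genes, each panel with its own vertical axis from 0. Points are libraries (blue, 3 Control; orange, 3 H/R), and the bar beside each group is the mean with the SD. Only Irs2 and Igfbp3 have overlapping groups, and the gap is widest in relative terms for Irs1 and Foxo3.

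Of the receptor genes, the one for insulin fell slightly and the one for IGF1 rose slightly. Insr (chromosome 8, 3122061 to 3279617, minus strand, GRCm38), the insulin receptor gene, had 442, 501 and 415 normalized counts in the Control libraries and 369, 394 and 396 after H/R. Every H/R library was below every Control library, but the gap from 396 to 415 was narrower than the spread within either group. The mean went from 453 ± 44.1 to 386 ± 14.6, a log2 fold change of -0.23 (SE 0.079, adjusted p = 0.0126), and 63.4% of all tested genes had a larger absolute change. Without Control replicate 2, the highest library, the Insr log2 fold change was -0.15 (adjusted p = 0.116), and without H/R replicate 1, the lowest, it was -0.20 (adjusted p = 0.0531). The decrease passed the test only with both of these libraries present.

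Igf1r (chromosome 7, 67952827 to 68233668, plus strand), the gene for the IGF1 receptor, had 1341, 1482 and 1426 normalized counts in Control and 1523, 1563 and 1564 after H/R. The groups of normalized counts did not overlap, and the H/R libraries were closer to each other than the controls were. In RPKM the groups overlapped, at 3.859 to 4.305 in Control and 4.103 to 4.287 after H/R. The mean was 1417 ± 71.4 in Control and 1550 ± 23.3 after H/R, and the log2 fold change was 0.13 (SE 0.049, adjusted p = 0.0214). This call depended on how libraries were scaled. The Igf1r log2 fold change was 0.06 (adjusted p = 0.299) with upper-quartile scaling and 0.03 (adjusted p = 0.687) with scaling by library totals, and the call was also lost without Control replicate 1 (adjusted p = 0.136), without H/R replicate 2 (adjusted p = 0.0722) and without H/R replicate 3 (adjusted p = 0.0546). Measured against the median of all genes, the Igf1r difference was 0.14 on the log2 scale under each of the 4 scalings tried. A scaling shifts all genes and their median by nearly the same amount, so this constancy was fixed in advance. It is no check of the call.

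The ratio of Insr to Igf1r within a library does not depend on the scaling. Taken from RPKM values, it was 0.403, 0.413 and 0.356 in Control and 0.296, 0.308 and 0.309 after H/R. Each H/R library was below each control, and the mean ratio was 0.390 ± 0.0307 in Control and 0.304 ± 0.00701 after H/R. The exact two-sided permutation test gave p = 0.1 (0.133 after adjustment over 4 ratios), the smallest p that 3 libraries against 3 can give, so that this test cannot pass 0.05.

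Of the adaptor genes, Irs1 fell by more than 2-fold, and Irs2, with a far higher level, showed no difference past the test. Both encode docking proteins that bring PI3K to the activated receptors. The 250 bases before each start site are shown because the letters searched for FOXO and hypoxia response elements overlap or nearly touch there. The Igfbp1 promoter is shown beside them, since that gene is the textbook insulin-repressed FOXO target of the hepatocyte. Sequences are from RefSeq on GRCm38.p6, 5′ to 3′ along the gene, in lower case, with every match to CAAAACA or ACGTG on either strand in capitals: Irs1 at chr1:82291440-82291689 and Irs2 at chr8:11008930-11009179 on the minus strand, and Igfbp1 at chr11:7197537-7197786 on the plus strand. The start sites are those of RefSeq, which for Irs1 and Irs2 lie 23 and 471 bases upstream of the gene start in the deposited tables. The bases just after these starts were found in no transcript of Irs1 or Irs2 in the GENCODE annotation, whereas those of Igfbp1 were. Positions in Irs1 and Irs2 therefore hold for the RefSeq starts only.
Irs1: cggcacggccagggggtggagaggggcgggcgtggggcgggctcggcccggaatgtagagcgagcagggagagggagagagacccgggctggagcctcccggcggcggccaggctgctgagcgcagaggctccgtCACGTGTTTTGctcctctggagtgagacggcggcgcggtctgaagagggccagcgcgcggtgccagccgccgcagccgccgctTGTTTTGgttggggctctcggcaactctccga
Irs2: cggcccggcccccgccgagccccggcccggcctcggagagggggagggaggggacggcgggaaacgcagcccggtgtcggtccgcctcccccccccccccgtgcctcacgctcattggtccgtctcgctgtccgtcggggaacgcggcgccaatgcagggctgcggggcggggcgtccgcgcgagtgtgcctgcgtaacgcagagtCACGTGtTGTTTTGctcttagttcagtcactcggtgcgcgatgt
Igfbp1: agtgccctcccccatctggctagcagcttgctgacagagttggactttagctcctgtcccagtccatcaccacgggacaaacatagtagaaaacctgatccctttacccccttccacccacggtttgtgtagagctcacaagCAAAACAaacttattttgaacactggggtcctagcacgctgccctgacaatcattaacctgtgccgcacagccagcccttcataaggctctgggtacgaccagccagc

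The letters searched on both strands were GTAAACA and CAAAACA, which FOXO and insulin response elements hold, and ACGTG, the core of the hypoxia response element. RefSeq promoters were matched for 9 of the 10 genes, with 10 promoters in all, and none was matched for Insr. In the Irs1 promoter CAAAACA was found on the reverse strand, as TGTTTTG, at -111 to -105 and at -32 to -26 before the RefSeq start. The first of these overlaps the palindrome CACGTG at -115 to -110 by 2 bases, and a palindrome of this kind matches ACGTG on both strands. In the Irs2 promoter CACGTG at -44 to -39 stands 1 base before TGTTTTG at -37 to -31. The Igfbp1 promoter holds CAAAACA at -108 to -102 and no ACGTG, and 1 of the Igfbp2 promoters holds CACGTG. The promoters of Igf1r, Igfbp3, Igfbp4, Foxo1 and Foxo3 hold none of the 3 sets of letters in this window. Among 32817 mouse promoters of the same length, 5.56% hold CAAAACA, 16.6% hold ACGTG, 0.771% hold both and 3.16% hold GTAAACA, which no promoter of these genes holds. CACGTG overlapping TGTTTTG or at most 1 base before it, an arrangement looked for after it had been seen in these genes, is in 7 promoters (0.0213%). Those of Irs1 and Irs2 are among the 7. The pattern was drawn from their sequences, so its low share is no test of rarity. That background has a median of 52.4% G and C and 6 CpG, whereas the Irs1 and Irs2 windows have 72.4% and 72.8% G and C with 28 and 34 CpG, and CACGTG itself contains a CpG. These matches describe the letters only. Among the genes described here, the promoters with this arrangement belong to the adaptor gene that fell and to the one that showed no difference past the test.

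Irs1 (chromosome 1, 82233101 to 82291416, minus strand) had 60, 53 and 68 counts in the Control libraries and 20, 28 and 26 after H/R. Normalized, these were 56.8, 51.7 and 64.0 against 21.5, 30.2 and 26.0, so that the highest H/R library lay well below the lowest control. The mean fell from 57.5 ± 6.19 to 25.9 ± 4.33, a log2 fold change of -1.15 (SE 0.220, adjusted p = 2.83e-05), which made Irs1 2.22-fold higher in Control. Of all tested genes, 5.91% had a larger absolute change. Leaving out any 1 library gave Irs1 log2 fold changes of -1.27 to -1.03, with adjusted p of at most 0.00044. In the reference, 30.9% of the exonic length of Irs1 overlaps exons of Gm9747 on the opposite strand, and reads of the 2 may have been shared. Gm9747 itself had 21, 18 and 27 counts in Control and 8, 9 and 8 after H/R. After its counts were subtracted, an alternative chosen after seeing the data, Irs1 had 39, 35 and 41 counts in Control and 12, 19 and 18 after H/R, with a log2 fold change of -1.09 (SE 0.269, adjusted p = 0.000703). At the low level of Irs1 a pseudocount weighs heavily: on the log2(RPKM + 1) scale its change was -0.21.

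Irs2 (chromosome 8, 10984681 to 11008458, minus strand) had 803, 792 and 923 normalized counts in Control and 875, 829 and 835 after H/R. The H/R libraries lay within the range of the controls. The mean was 839 ± 72.5 in Control and 846 ± 24.5 after H/R, with a log2 fold change of 0.01 (SE 0.061, adjusted p = 0.875). The Irs2 value changed sign with the scaling, to -0.059 with the upper quartile and -0.094 with library totals. The RPKM ratio of Irs2 to Irs1 was 20.4, 22.2 and 20.8 in Control and 58.7, 39.7 and 46.5 after H/R. The groups were far apart, at 21.1 ± 0.898 and 48.3 ± 9.63, a log2 difference of 1.17 (exact two-sided permutation p = 0.1, adjusted 0.133). Leaving out any 1 library kept this log2 difference between 1.02 and 1.31.

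By the likeness of the centred log2 profile over the 6 libraries, the genes closest to Irs1 among 10170 with a mean normalized count of at least 100 were Lsm2, Pop1 and Caprin2, at Euclidean distances of 0.183, 0.219 and 0.246. Their log2 fold changes were -1.11, -1.13 and -1.11. The genes were picked by this same profile, so fold changes close to that of Irs1 follow from the choice.

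Of the IGF-binding protein genes, Igfbp4 was by far the most abundant and rose, Igfbp3 missed the threshold, and Igfbp1 was at the floor. Igfbp4 (chromosome 11, 99041244 to 99054392, plus strand), whose product binds IGFs and mostly restrains them, had 11988, 11300 and 12659 normalized counts in Control and 14174, 15146 and 15603 after H/R. All 3 H/R libraries were above all controls. The mean rose from 11982 ± 679 to 14975 ± 730, a log2 fold change of 0.32 (SE 0.048, adjusted p = 4.51e-07) or 1.25-fold. In Control its level was 133 RPKM, and 96.9% of tested genes were lower.

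Igfbp3 (chromosome 11, 7206086 to 7213923, minus strand), the gene of the main IGF carrier of the circulation, had 402, 336 and 349 normalized counts in Control and 460, 363 and 422 after H/R. The groups overlapped, with 2 of 3 H/R libraries above every control. The mean was 362 ± 35.3 in Control and 415 ± 48.6 after H/R, and the Igfbp3 log2 fold change was 0.20 (SE 0.088, adjusted p = 0.0525). The value lies next to the threshold and passed it without Control replicate 1 (adjusted p = 0.0116), without H/R replicate 2 (adjusted p = 0.0112), and with no filter on low counts (adjusted p = 0.0482).

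Igfbp1 (chromosome 11, 7197782 to 7202546, plus strand), which insulin represses and fasting induces in liver, had 1 count in Control replicate 1 and 0 in the other 5 libraries. A floor of 3 counts per library stands for 0.09 to 0.0962 RPKM, so that a level under this could not be detected at this depth, and no fold change is given. Counting error alone enters this floor. Its neighbour Igfbp3 ends 3539 bases away, on the opposite strand, and had at least 337 counts in every library. Summed over Igfbp1, Igfbp3 and Igfbp4, the level was 130 to 148.4 RPKM in Control and 151.8 to 168.8 RPKM after H/R, and Igfbp4 made up 95.5% to 96.7% of it. Igfbp2 and Igfbp7 are outside this sum. The RPKM ratio of Igfbp4 to Igfbp3, a pair chosen after the values were seen, was 23.6 ± 2.30 in Control and 25.9 ± 3.86 after H/R (exact two-sided permutation p = 0.4, log2 difference 0.13). The ratios overlapped between the groups.

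Both FOXO genes among the 10 rose, Foxo3 by 1.86-fold and Foxo1 by 1.45-fold. Foxo4, outside the 10, was at a higher level than either and fell, from 10.8 RPKM in Control to 6.31 RPKM after H/R. Foxo3 (chromosome 10, 42181841 to 42276755, minus strand), a factor that drives stress resistance, autophagy and cell death genes, had 419, 421 and 479 normalized counts in Control and 772, 878 and 809 after H/R. The lowest H/R library lay far above the highest control. The mean rose from 440 ± 34.2 to 820 ± 53.6, a log2 fold change of 0.90 (SE 0.067, adjusted p = 8.9e-14). The rise was short of 2-fold, and 11.2% of all tested genes had a larger absolute change. Leaving out any 1 library gave Foxo3 log2 fold changes of 0.85 to 0.97.

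Foxo1 (chromosome 3, 52268336 to 52353221, plus strand), the main FOXO factor of insulin-regulated glucose production in liver, had 95.6, 92.7 and 112 normalized counts in Control and 160, 155 and 121 after H/R. The groups of normalized counts did not overlap, although H/R replicate 3 was close to the highest control. In RPKM they overlapped, with H/R replicate 3 at 0.6423 and Control replicate 3 at 0.6442. The mean rose from 100.1 ± 10.4 to 146 ± 21.5, a log2 fold change of 0.54 (SE 0.135, adjusted p = 0.000841) or 1.45-fold. Exons of Gm20402 on the opposite strand cover 7.78% of the exonic length of Foxo1. The RPKM ratio of Foxo1 to Foxo3 was 0.200, 0.192 and 0.204 in Control and 0.182, 0.155 and 0.131 after H/R. It was lower in every H/R library, at 0.156 ± 0.0255 against 0.199 ± 0.00612, a log2 difference of -0.37 (exact two-sided permutation p = 0.1, adjusted 0.133).

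**Figure D2:**
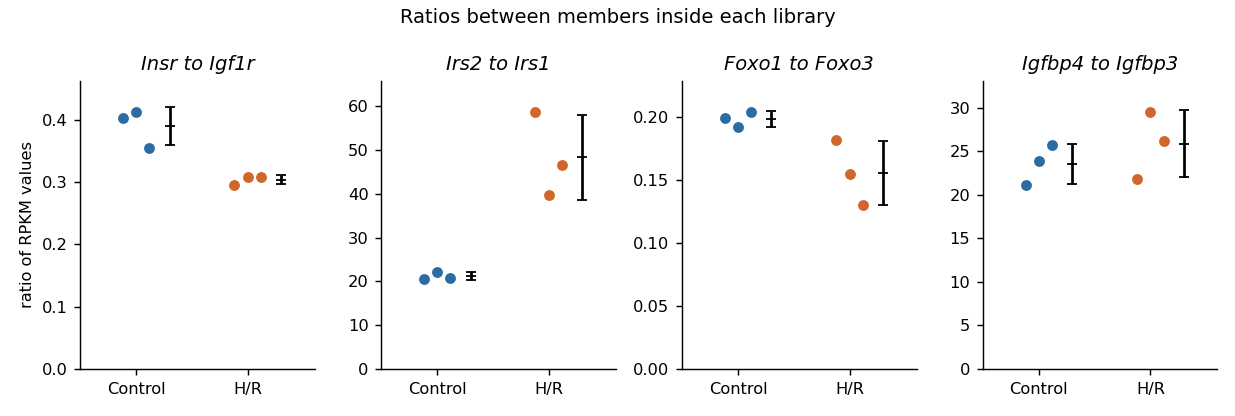
Ratios of RPKM values between pairs of genes in the same library, each panel with its own vertical axis from 0. Points are libraries (blue, Control; orange, H/R), and bars are the mean with the SD of 3 libraries. The first 3 pairs do not overlap between the groups, and Igfbp4 to Igfbp3 does.

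Compared per exon length, the order of levels in Control was Igfbp4 (133 RPKM), Irs2 (6.50 RPKM), Igfbp3 (5.67 RPKM), Igf1r (4.13 RPKM), Foxo3 (2.85 RPKM), Insr (1.61 RPKM), Foxo1 (0.566 RPKM), Irs1 (0.308 RPKM) and Igfbp1 (0.0100 RPKM, from 1 count). Irs2 and Igfbp3 overlapped in both groups and their order is not resolved. Only Foxo3 and Igf1r changed places after H/R. Foxo3 was at 2.67 to 3.15 RPKM in Control, below Igf1r at 3.86 to 4.31 RPKM. After H/R Foxo3 was at 4.61 to 5.26 RPKM, above Igf1r at 4.10 to 4.29 RPKM. The other levels after H/R were 154 RPKM for Igfbp4, 6.10 RPKM for Irs2, 6.04 RPKM for Igfbp3, 1.28 RPKM for Insr, 0.764 RPKM for Foxo1 and 0.129 RPKM for Irs1. RPKM is scaled by library totals alone, which places H/R levels lower relative to Control than the normalized counts do.

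**Figure D3:**
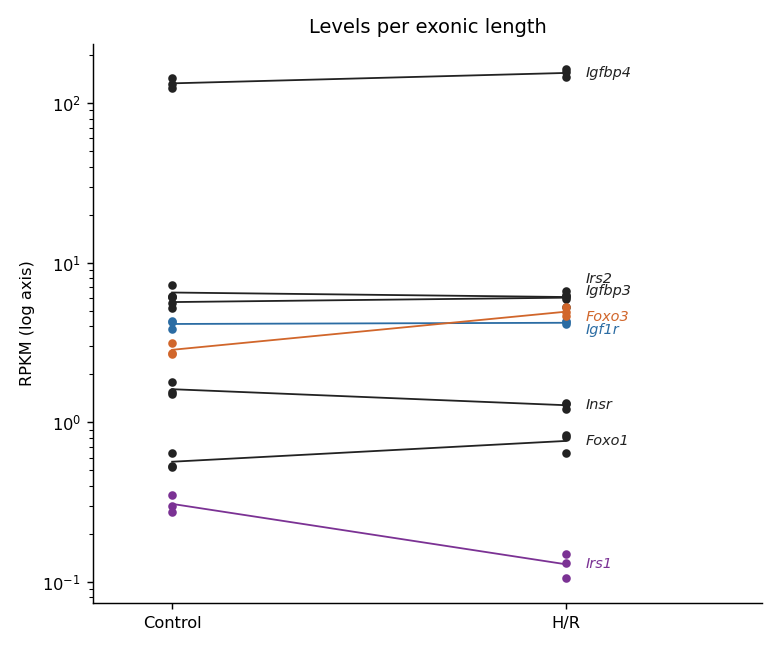
Levels in RPKM of the 8 tested genes in the 3 Control and 3 H/R libraries, on a log axis. Points are libraries and lines join the group means, coloured for Foxo3 (orange), Igf1r (blue) and Irs1 (purple). The lines of Foxo3 and Igf1r cross, while Igfbp4 stays more than 10 times above the rest.

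**Figure D4:**
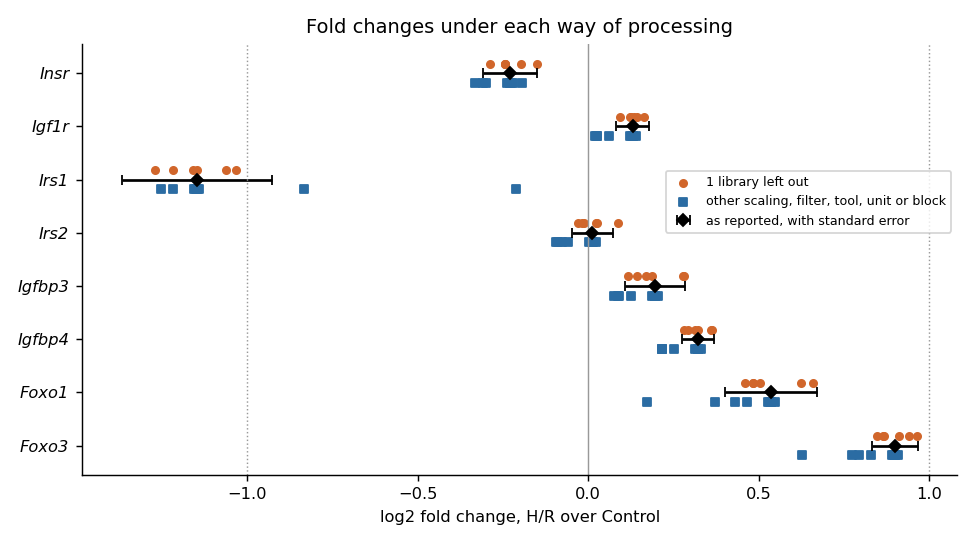
Log2 fold changes of the 8 tested genes, H/R over Control, under each way of processing and with each library left out. Black diamonds are the values reported with their SE, orange circles leave out 1 library, blue squares are the other settings, and dotted lines mark a 2-fold change. In the settings shown all genes but Irs2 keep their sign, and Irs2 lies on both sides of 0.

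The other genes of the pathway were followed with 9 lists of 79 genes, of which 57 could be tested. By adjusted p alone 20 rose (35.1%), 20 fell (35.1%) and 17 did not pass. With the 2-fold requirement 6 rose (10.5%) and 7 fell (12.3%), against 4.25% and 4.27% of all tested genes. The median log2 fold change of the 57 was 0.00070. The groups of normalized counts did not overlap for 41 of the 57, beside 65.9% of all tested genes. The shares by adjusted p alone are near those of all tested genes, and the shares with the 2-fold requirement are larger, a difference that was not tested. Genes named here beyond the 3 largest changes of a list past both criteria, or a list's largest change where none was, were chosen after their values were seen.

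Igf1 was the only ligand gene measured here, and it did not reach the test. Ins1, Ins2 and Igf2 were not analysed here, so nothing is said of their levels. Igf1, the liver-derived growth factor, had 12, 2 and 1 counts in Control and 1, 0 and 0 after H/R, and most of these counts came from Control replicate 1. Of the genes that control cleavage of IGF-binding proteins, Pappa2, Stc1 and Stc2 had at most 3 counts in any library, and Pappa was not analysed here. Of the other receptors and carriers, Igf2r, which takes up IGF2 for degradation, showed a log2 difference of 0.00070 (adjusted p = 0.998). Igfbp7 was 0.17 higher on the log2 scale (SE 0.066, adjusted p = 0.0316), a call lost under library totals, under upper-quartile scaling and without Control replicate 1 (adjusted p = 0.111), and 7.03% of its exonic length overlaps Polr2b.

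Of 8 tested genes for adaptors and the Ras branch, 3 rose (37.5%), 1 fell (12.5%) and 4 did not pass. Among all tested genes 31.0% rose and 31.8% fell. Gab2, a docking protein that recruits PI3K and SHP2, had 610, 574 and 653 counts in Control and 1183, 1243 and 1261 after H/R. It rose by 1.14 on the log2 scale (SE 0.057, adjusted p = 1.22e-18), whereas Irs1, also a docking protein, fell. Gab1, its paralog, rose by 0.41 and Sos2, a Ras exchange factor, by 0.42, while Sh2b1, which enhances receptor kinase activity, fell by 0.18 on the log2 scale.

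The PI3K and AKT list had 4 genes that rose (36.4%) and 5 that fell (45.5%) among 11 tested. For all tested genes the shares were 31.0% and 31.8%. The genes of the catalytic subunits Pik3ca and Pik3cb rose, by 0.36 and 0.59 on the log2 scale. Those of the regulatory subunits Pik3r1, Pik3r2 and Pik3r3 all fell, with log2 fold changes of -0.28, -0.63 and -2.53. Pik3r3 showed the largest decrease, from 266, 296 and 239 counts in Control to 40, 41 and 45 after H/R (SE 0.137, adjusted p = 1.54e-17). RP23-276M23.6 shares 24.3% of the exonic length of Pik3r3 on the same strand. It had 204, 217 and 173 counts in Control and 31, 27 and 32 after H/R. Reads of the 2 may have been shared, and how much of the decrease belongs to Pik3r3 was not tested. Rictor, the defining subunit of the mTORC2 complex that phosphorylates AKT, rose by 1.66 (SE 0.056, adjusted p = 2.13e-23), from 515, 495 and 529 counts to 1374, 1450 and 1589. Its partner Mapkap1 fell by 0.31 on the log2 scale. Pdpk1, the other kinase that activates AKT, rose by 0.56, and Akt1 fell by 0.35. Akt2, the main AKT of insulin action in liver, differed by -0.03 on the log2 scale (adjusted p = 0.654).

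Among 11 tested brakes on insulin signaling, 4 rose (36.4%), 2 fell (18.2%) and 5 did not pass. Beside these stand 31.0% higher and 31.8% lower among all tested genes. Trib3, a pseudokinase that binds AKT and is induced by cellular stress, rose by 1.40 on the log2 scale (adjusted p = 1.47e-20). The tyrosine phosphatase genes Ptpn2 and Ptpn1 rose by 0.81 and 0.25. Inpp4b, which removes a phosphate from a PI3K product, had 24, 18 and 22 counts in Control and 5, 12 and 4 after H/R, a log2 fold change of -1.45 (adjusted p = 0.00164). Leaving out 1 library moved it between -2.10, without H/R replicate 2, and -1.14, without H/R replicate 3, and on the log2(RPKM + 1) scale Inpp4b did not pass (-0.069, adjusted p = 0.12). Phlpp2, an AKT phosphatase gene, fell by 0.19 on the log2 scale (adjusted p = 0.0364, 0.112 with DESeq2 and 0.0878 without Control replicate 1).

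Of the remaining FOXO genes, Foxo4 fell by 0.67 on the log2 scale (adjusted p = 2.45e-11) and Foxo6 differed by -0.16 (adjusted p = 0.292). Of the genes whose products act on FOXO factors, Sgk3, an AKT-related kinase, fell by 1.07 (adjusted p = 1.44e-10), Skp2, which marks FOXO1 for degradation, fell by 0.96, Sgk1 fell by 0.17, and Sirt1, which deacetylates FOXO factors, rose by 0.33 (adjusted p = 0.0236, and 0.0627 with DESeq2). In all 1 of 7 tested rose (14.3%) and 4 fell (57.1%), beside 31.0% and 31.8% of all tested genes.

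Of 13 tested FOXO target genes, 6 rose (46.2%), 4 fell (30.8%) and 3 did not pass, with a median log2 fold change of 0.07, beside 31.0% higher and 31.8% lower among all tested genes. Ccng2, a cyclin that slows the cell cycle, rose by 2.82 on the log2 scale (adjusted p = 5.66e-27), from 169, 164 and 191 counts in Control to 1064, 1073 and 1221 after H/R. Cited2, which hypoxia-inducible factor also induces, rose by 1.94 (adjusted p = 2.49e-27), and Gadd45a, a growth arrest gene, by 1.80 (adjusted p = 8.65e-20; 19.1% of its exonic length overlaps E230016M11Rik). Fbxo32 rose by 0.94, Sod2 by 0.26 and Cdkn1b by 0.15 (0.05 with scaling by library totals, adjusted p = 0.461, and adjusted p = 0.0504 without Control replicate 1). The sestrin genes Sesn1 and Sesn3 fell by 1.07 and 0.44 on the log2 scale, Trib1 fell by 0.56 and Bcl2l11 by 0.25 (adjusted p = 0.0398, 0.117 with DESeq2 and 0.0567 without Control replicate 1). Pck1, a gene of glucose production, had 28 counts in Control replicate 1 and at most 1 in any other library, and Pdk4 had 11, 11 and 7 counts in Control and 5, 1 and 7 after H/R, so neither was tested.

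Of the insulin-induced liver genes, 5 were tested, 4 fell and 1 rose, with a median log2 fold change of -1.37. Of all tested genes 31.8% fell. Of the 4, 3 fell by at least 2-fold, as did 4.27% of all tested genes. Elovl6, Fasn and Acaca, enzymes of fatty acid synthesis and elongation, fell by 2.16 (adjusted p = 2.24e-23), 1.80 (adjusted p = 2.49e-27) and 1.37 (adjusted p = 2.52e-24) on the log2 scale. Fasn had 15431, 14844 and 15581 counts in Control and 3994, 3762 and 4171 after H/R. Scd1 fell by 0.57. Srebf1, the factor through which insulin raises these enzymes, rose by 0.19 (adjusted p = 0.00122), a call lost with scaling by library totals (0.09, adjusted p = 0.15).

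**Figure D5:**
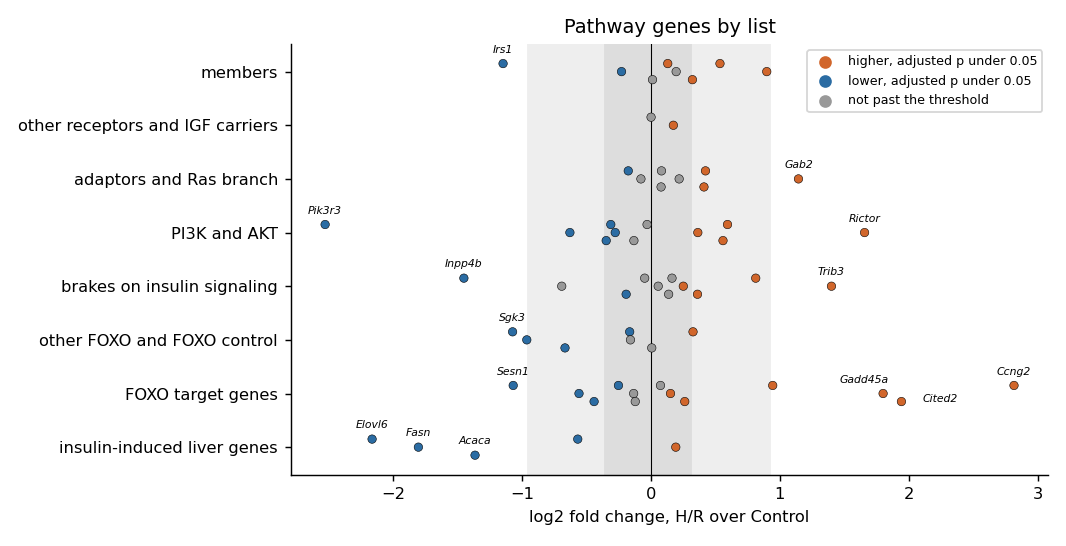
Log2 fold changes, H/R over Control, of the tested genes in each list, with genes past both criteria named. Orange is higher and blue lower at an adjusted p under 0.05, grey is not past it, and the dark and light bands hold the middle 50% and 90% of all tested genes. The points of most lists lie on both sides of 0, and those of Elovl6, Fasn and Acaca lie left of the light band.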

How the data were processed

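RNA of AML12 cells (3 Control and 3 H/R samples) was sequenced as stranded mRNA libraries of 20438746 to 21854790 counts. The authors mapped reads to GRCm38, and the submitters' processing notes name Trimmomatic 0.36, featureCounts of Subread 1.5.1 and edgeR 3.12.1. The deposited counts are whole, unnormalized read counts per gene. The deposited RPKM values follow from count, exonic length and library total (largest relative error 1.13e-06). Whether counting used strand is not given in the sources used here. In 24 rows the gene symbol had become a date. These rows were tested and are not named.

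All genes' counts entered 1 fit of edgeR 4.0.16 under R 4.3.3 (filterByExpr, TMM, estimateDisp, robust glmQLFit, glmQLFTest), with Benjamini-Hochberg adjustment over 14020 genes. Thresholds were an adjusted p of 0.05 and a 2-fold change. The biological coefficient of variation was 0.0502, and libraries of a group differed by more than counting noise (2.19 to 16.2 times the chi-square expected of it). Alternatives were DESeq2 1.42.0, 2 other scalings, 2 other filters, a non-robust fit, a replicate block, limma 3.58.1 on log2(RPKM + 1) and log2(RPKM + 0.1), a 1.5-fold threshold and each library left out. The statistical scripts were tested on simulated data. Ratios within libraries were compared with exact two-sided permutation tests.

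The 10 genes, the lists and the tests were chosen with earlier results of these data known. Genes named from a list are the at most 3 with the largest absolute log2 fold change past both thresholds, or the largest where none passed, plus those said in the text to be chosen later. The 3 genes most like Irs1 were named by profile distance. Planned ratios with Igfbp1 and Igfbp2 and a comparison of protein sequences were not run. Some genes of the lists are counted and not reported singly here.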

Additional observations from a re-analysis of the deposited data

How the results depend on the processing

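Over 9 other ways of processing, the log2 fold changes of the 8 genes kept their direction and their side of the threshold in 61 of 72 cases, lost the call in 5, gained it in 2 and changed sign in 4. Every change of sign was that of Irs2, at -0.0585 (scaling by the upper quartile), -0.0938 (library totals), -0.0774 (limma, RPKM + 1) and -0.0878 (limma, RPKM + 0.1). The calls lost were Igf1r under the same 4 settings and Foxo1 on log2(RPKM + 0.1) (0.37, adjusted p = 0.0507). These settings centre the data elsewhere: the median log2 fold change of all genes was -0.08 for the upper quartile and -0.12 for library totals against -0.01, and 41.6% and 37.9% of the genes called were higher, against 49.4%. On log2(RPKM + 0.1) 2 of the 8 genes were higher, as were 3161 of the 14020 genes tested. Of the 8 genes, 0 were past both thresholds on either RPKM scale and 2 (Irs1 and Foxo3) with a 1.5-fold threshold. The number of pathway genes past both thresholds was 13, and 19 with the 1.5-fold threshold, 16 with no filter, 14 with either other scaling, 12 with at least 10 counts in every library or on log2(RPKM + 0.1), and 9 on log2(RPKM + 1). With at least 10 counts in every library Inpp4b was not tested. The shares of all tested genes past both thresholds in these other settings are not given here. These counts therefore describe the 8 genes and the lists alone.

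With 1 library left out, 3 to 4 genes were higher and 1 to 2 lower, 1 stayed past both thresholds, and 13 to 15 pathway genes were past both. Of all 14179 to 14268 genes then tested, 8105 to 8521 were called at an adjusted p under 0.05, and 49.7% to 49.8% of those called were higher. Insr was not called without Control replicate 2 or H/R replicate 1. Igf1r was not called without Control replicate 1, H/R replicate 2 or H/R replicate 3, and Igfbp3 was called without Control replicate 1 or H/R replicate 2. The Irs2 log2 fold change then ranged from -0.0288 to 0.0860, with values of -0.0288, -0.0195 and -0.0114 in the 3 cases where it was negative. The Igfbp4 to Igfbp3 ratio differed by 0.03 to 0.25, the Insr to Igf1r ratio by -0.42 to -0.32 and the Foxo1 to Foxo3 ratio by -0.48 to -0.25 on the log2 scale. Of the pathway genes named, Igfbp7 was not called without Control replicate 1 or 2 or H/R replicate 2 or 3, Phlpp2 was not called without Control replicate 1 or 2 or H/R replicate 1 or 2, Sirt1 without Control replicate 2 or H/R replicate 2 or 3, Cdkn1b without Control replicate 1 or 3, and Bcl2l11 without Control replicate 1 or 3 or H/R replicate 3. These 5 genes also lost the call in other settings, with the same direction. The cause of these changes was not tested.

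Libraries with the same replicate number did not deviate together (correlations of -0.027, 0.005 and -0.014, and 0 of 6 libraries closest to one with its own number). No pairing by number was seen, but a pairing with an effect too weak to be seen here is not excluded. With the number as a replicate block, 5 genes were higher, 2 lower, 1 past both thresholds and 13 pathway genes past both. Of all 14020 genes tested with the block, 8787 were called at an adjusted p under 0.05, 4352 of them higher. The gene gained was Igfbp3 (0.20, adjusted p = 0.0319).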
